A study of Caenorhabditis elegans with 6 samples.

Results

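The major sperm protein family of *Caenorhabditis elegans* was followed in the RNA of whole L4 larvae of 2 strains. Members were taken by name, as every gene of the deposited read count table whose WormBase symbol in the WBcel235 assembly starts with *msp-*, *msd-* or *ssp-* and a number. This gave 51 of 46661 genes, namely 31 protein-coding *msp* genes, 4 *msp* pseudogenes, 4 *msd* genes (major sperm protein domain) and 12 *ssp* genes (sperm-specific family, class P).

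Nematode sperm have no flagellum and crawl. The cytoskeleton that moves them is a meshwork of filaments built from major sperm protein (MSP), which takes the place that actin has in other crawling cells, and which is stored in developing sperm in paracrystalline fibrous bodies. Sperm also release MSP as a signal that drives oocyte maturation and the contraction of the gonadal sheath. The *msp* genes are a multigene family of nearly identical coding sequences transcribed in developing sperm, and in hermaphrodites sperm are made during the L4 stage, before oocytes. The *msd* and *ssp* genes encode small sperm proteins built on the same MSP domain.

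The compared strains were N2, the wild-type laboratory strain, and *folr-1(syb4116)*, which carries a CRISPR-made premature stop codon in the gene of the folate receptor FOLR-1. Both were raised at 20 °C as synchronized populations on *E. coli* HT115 carrying the empty RNAi vector, and 3 biological replicates per strain were collected as L4 larvae. The mutant is a single allele, and each library is a pool of whole animals. The question that the comparison addresses is how loss of FOLR-1 alters gene expression. The 6 libraries held between 21646678 and 25946226 counts, and 15432 genes passed the filter on low counts and were tested by the quasi-likelihood method of edgeR, and p-values were adjusted over all of them after Benjamini and Hochberg. A gene was called where the adjusted p was under 0.05. Of all tested genes 561 were called higher and 512 lower in the mutant, and the median log2 fold change was 0.00. The targeted gene itself, *folr-1* (C17G1.1), was lower in the mutant, with 32, 37 and 59 counts in N2 and 14, 11 and 7 in the mutant (log2 fold change −2.02, SE 0.31, adjusted p = 4.99e-04 by edgeR).

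The family is clustered in the genome. Chromosome IV holds 29 members, chromosome II 15, chromosome I 4, chromosome V 2 and chromosome III 1, and none lies on the X chromosome. With members less than 200 kb apart counted as neighbours, 4 clusters hold 43 of the 51 members. On chromosome II, 12 members lie within 414.283 kb (II:4785898-5200180, WBcel235) and 3, *msp-63*, *msp-142* and *msp-64*, within 13.266 kb (II:5797065-5810330). On chromosome IV, 12 members lie within 322.536 kb (IV:4994371-5316906) and 16 within 455.161 kb (IV:9689015-10144175). The other 8 members, 7 of them *ssp* genes and the remaining one *msd-4*, lie alone. The genes are short and simple in structure. Of the 47 protein-coding members, 44 have a single coding exon, 28 have a coding length of 384 bases, 9 of 330 bases and 6 of 324 bases.

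The near identity of the *msp* genes limits what a count of a single member means. A sequenced fragment can match several copies, and how such fragments were counted is not given in the sources used here, so the division of counts among the members is uncertain. Overlapping genes add to this, since it is also not given whether the counting used strand. The exon of *msd-2* is wholly shared with the gene F44D12.16, and the exon of the pseudogene *msp-37* lies wholly within an exon of *dhs-12*. *msp-31*, *msp-33*, *msp-45* and *msp-38* lie within introns of *aagr-2*, *gst-9*, *srb-13* and *dhs-12* and share no exon with them.

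The family was abundantly expressed in both strains, and its members differed widely in level. Levels are compared between genes as FPKM, fragments scaled to gene length and sequencing depth, as deposited. Over the 6 libraries, 29 members had a mean above 100 FPKM, 14 lay between 10 and 100 FPKM and 8 were below 10 FPKM. The highest 5 were *msp* genes with 384 coding bases, and the 5 members with the most counts took 27.5% of all counts of the family. *msp-31* led with 782 ± 47.1 FPKM in N2 and 725 ± 33.8 FPKM in the mutant (mean ± SD, n = 3 per strain). *msp-57* followed with 589 ± 6.44 FPKM in N2 and 556 ± 22.4 FPKM in the mutant.

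The next levels lay close together. *msp-76* had 515 ± 13.8 FPKM in N2 and 535 ± 12.6 FPKM in the mutant, *msp-40* had 482 ± 17.1 and 480 ± 8.28 FPKM, and *msp-36* had 463 ± 32.6 and 476 ± 32.8 FPKM. The SD ranges of *msp-40* and *msp-36* overlapped in both strains, so that their order is not set by these libraries, whereas *msp-31* stood above *msp-57*, and *msp-57* above *msp-76* in N2, by more than the SDs. Among the related families, *msd-4* was the highest *msd* gene, with a mean of 260 FPKM, and *ssp-10* the highest *ssp* gene, with 156 FPKM.

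**Figure D1:**
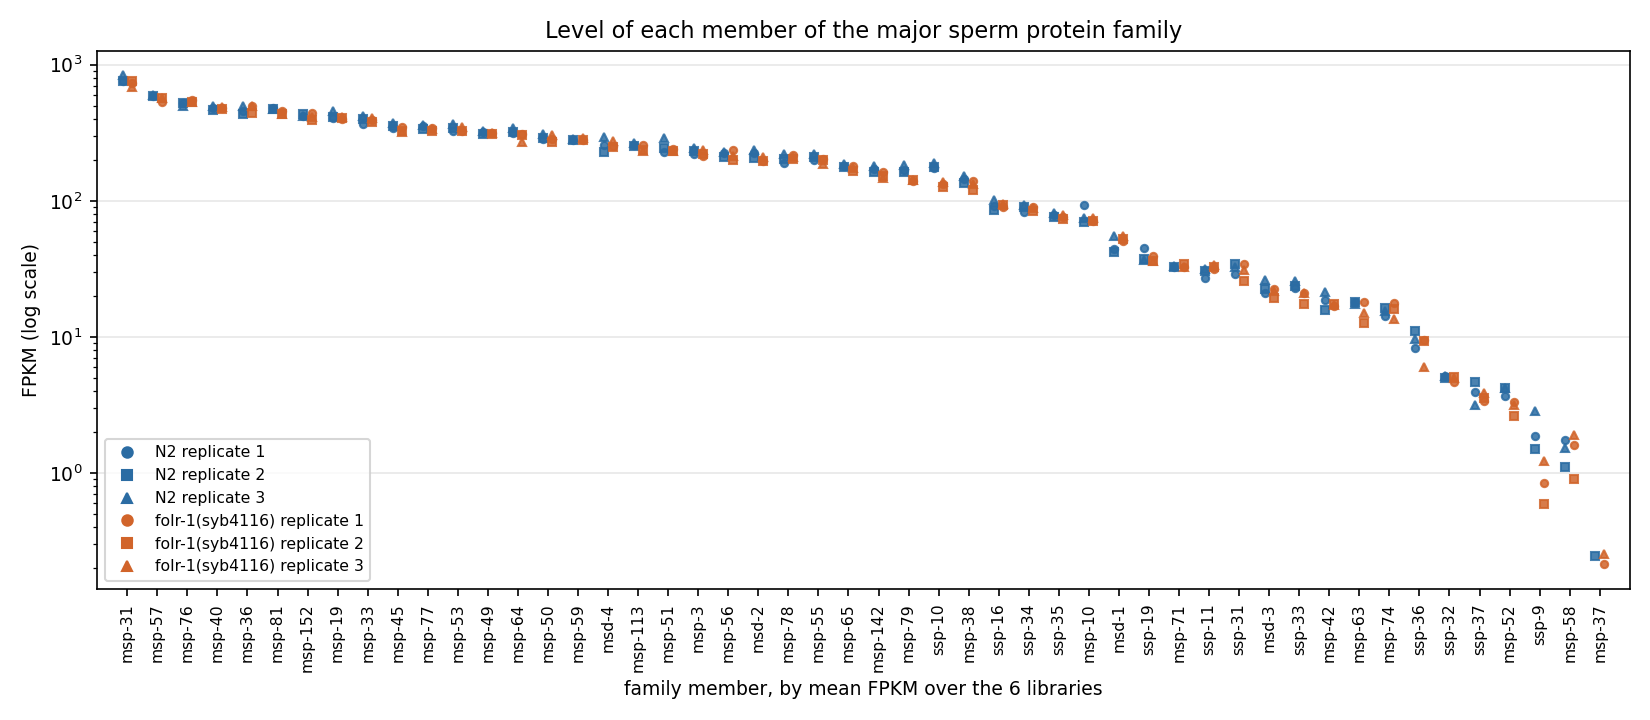
FPKM of 50 members in each of the 6 libraries on a log scale, in order of their mean, with N2 in blue, *folr-1(syb4116)* in orange and the marker shape giving the replicate. The order runs from *msp-31* at a mean of 754 FPKM to *msp-37* at 0.12 FPKM, values of 0 are not drawn and *msp-32*, at 0 in every library, is left out.

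At the low end, *msp-32* had 0 counts in all 6 libraries, which allows a level of up to 0.116 to 0.139 CPM, counts scaled to a library of 1000000 (3 counts per library, counting error only). This gene lies inside the larger cluster on chromosome II, among members of high level, and whether reads shared with its copies were left uncounted was not tested. The pseudogene *msp-37* had 0, 1 and 0 counts in N2 and 1, 0 and 1 in the mutant. These 2 members did not pass the filter, which left 49 tested members. *msp-58* and *ssp-9* were also close to the floor, with means of 1.47 and 1.48 FPKM.

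The summed level of the family was slightly lower in the mutant. In CPM of the TMM-adjusted library size, the unit of the comparisons that follow, the 51 members together reached 4467, 4449 and 4764 CPM in N2 and 4433, 4279 and 4384 CPM in the mutant. Every mutant library thus lay below every N2 library, but the highest mutant library and the lowest N2 library were nearly equal. The means were 4560 ± 177 CPM in N2 and 4366 ± 78.7 CPM in the mutant, a log2 ratio of −0.06. Of the unscaled library, the family took 0.449, 0.449 and 0.483% of all counts in N2 and 0.437, 0.423 and 0.436% in the mutant. In RNA of whole animals, fewer sperm-forming cells and less RNA per cell cannot be told apart.

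A single N2 library carried much of the spread. N2 replicate 3 had the highest value for 34 of the 49 tested members, and mutant replicate 2 had the lowest value for 17. With N2 replicate 3 left out, the log2 ratio of the family's share of counts moved from −0.09 to −0.06, and with any of the 6 libraries left out in turn, an alternative chosen after the data were seen, it lay between −0.11 and −0.06. Without *ssp-10* and *msp-79*, described next, the summed CPM of the strains overlapped, with a log2 ratio of −0.05. The overlap was slight, with 4301 CPM in N2 replicate 2 and 4314 CPM in mutant replicate 1. As a share of all counts the remaining 49 members did not overlap, at 0.434, 0.434 and 0.466% in N2 and 0.425, 0.412 and 0.424% in the mutant.

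Among single members the differences were small and mostly in the same direction. Of the 49 tested members, 40 had a log2 fold change below 0, beside 49.3% of all tested genes, and the median over the members was −0.08, beside 0.00 over all tested genes. The changes ran from −1.24 to 0.15, and 41 members stayed within 0.15 of 0 on the log2 scale. 2 of the 49 members, *ssp-10* and *msp-79*, were called lower, while 3.32% of all tested genes were called lower. 0 members were called higher, against 3.64% of all tested genes, and 6.95% of all tested genes were called in either direction. At an unadjusted p under 0.05, 13 members were lower, against 9.91% of all tested genes, and 0 were higher. DESeq2 and limma-voom called the same 2 members. With N2 replicate 3 left out, the members' median was −0.04, 33 lay below 0 and 16 above. Leaving out mutant replicate 2 also gave 33 below and 16 above, with a median of −0.07.

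**Figure D2:**
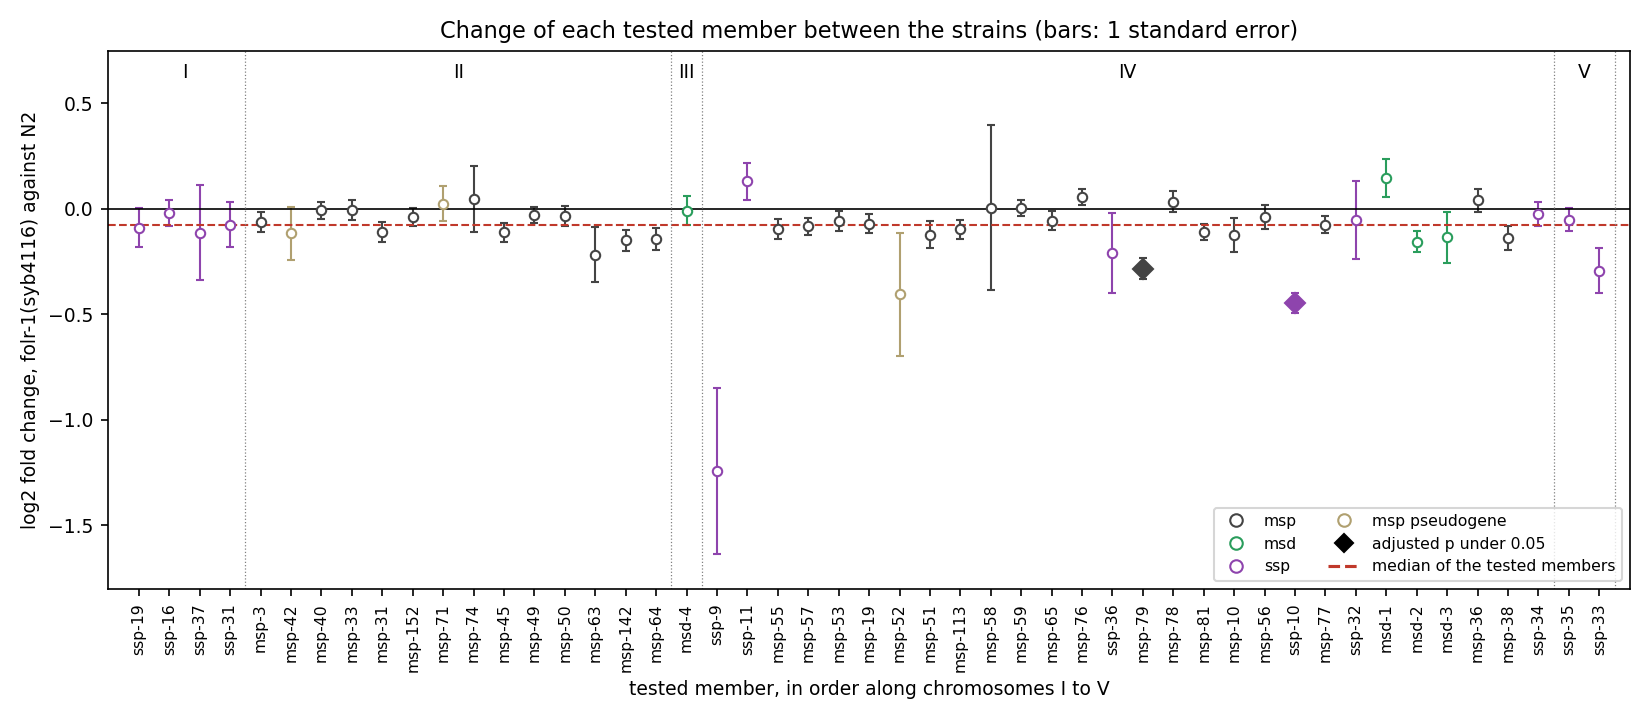
Log2 fold change of each of the 49 tested members, *folr-1(syb4116)* against N2, in order along the chromosomes, with bars of 1 SE from edgeR and the dashed line at the members' median of −0.08. The called members, *ssp-10* at −0.45 and *msp-79* at −0.28, are filled diamonds, and *ssp-9* lies lowest at −1.24 with a wide error.

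*ssp-10* (K07F5.9) fell most clearly. This gene encodes a small MSP-domain protein of sperm and lies within the second cluster of chromosome IV (IV:9850702-9851031, WBcel235, minus strand). It had 1620, 1672 and 2043 counts in N2 and 1451, 1303 and 1252 in the mutant, that is 74.1, 75.1 and 80.8 CPM in N2 and 56.7, 54.0 and 58.2 CPM in the mutant. All mutant libraries were low and all N2 libraries high, with a clear gap between the strains. The level fell by 26.6% (log2 fold change −0.45, SE 0.05, adjusted p = 1.59e-05 by edgeR).

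*msp-79* (T13F2.10) fell less. It is one of the *msp* genes with 384 coding bases and lies in the same cluster (IV:9766771-9767154, minus strand), 83.547 kb from *ssp-10*. It had 1623, 1620 and 2077 counts in N2 and 1604, 1514 and 1354 in the mutant, or 74.3, 72.7 and 82.1 CPM in N2 and 62.7, 62.7 and 63.0 CPM in the mutant. The mutant libraries were nearly equal, and each was below the lowest N2 library. The level fell by 17.8% (log2 fold change −0.28, SE 0.05, adjusted p = 0.00147 by edgeR).

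Both calls were kept with each of the 6 libraries left out in turn, when the log2 fold change of *ssp-10* ranged from −0.47 to −0.41 and that of *msp-79* from −0.32 to −0.23. An exact two-sided permutation test of either gene's CPM gave p = 0.1, the smallest that 3 against 3 libraries allow. Any gene whose strains do not overlap gives this value, so the test adds nothing to the calls. Neither change reached the size of 1 on the log2 scale.

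The genes near these members are given beside the shares over all tested genes, of which 3.32% were called lower and 3.64% higher. Between *msp-79* and *ssp-10* lie *msp-78*, *msp-81*, *msp-10* and *msp-56*, and none of them was called. *msp-78*, the nearest family member to *msp-79* on that side, had 81.6, 87.6 and 94.3 CPM in N2 and 93.1, 86.6 and 90.6 CPM in the mutant, and the strains overlapped (log2 fold change 0.03, adjusted p = 0.768 by edgeR). *msp-81* had a log2 fold change of −0.11 (adjusted p = 0.109), *msp-10* of −0.12 (adjusted p = 0.442) and *msp-56* of −0.04 (adjusted p = 0.766). Within 100 kb of *ssp-10*, 41 other genes were tested, of which 1 was called lower (T13F2.6) and 1 higher (*egl-20*, a Wnt ligand). Within 100 kb of *msp-79*, 45 other genes were tested, and *ant-1.3*, of the mitochondrial adenine nucleotide transporter family, was called lower besides the same T13F2.6, with *egl-20* higher. The median log2 fold change of these other genes was −0.01 around *ssp-10* and −0.06 around *msp-79*.

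**Figure D3:**
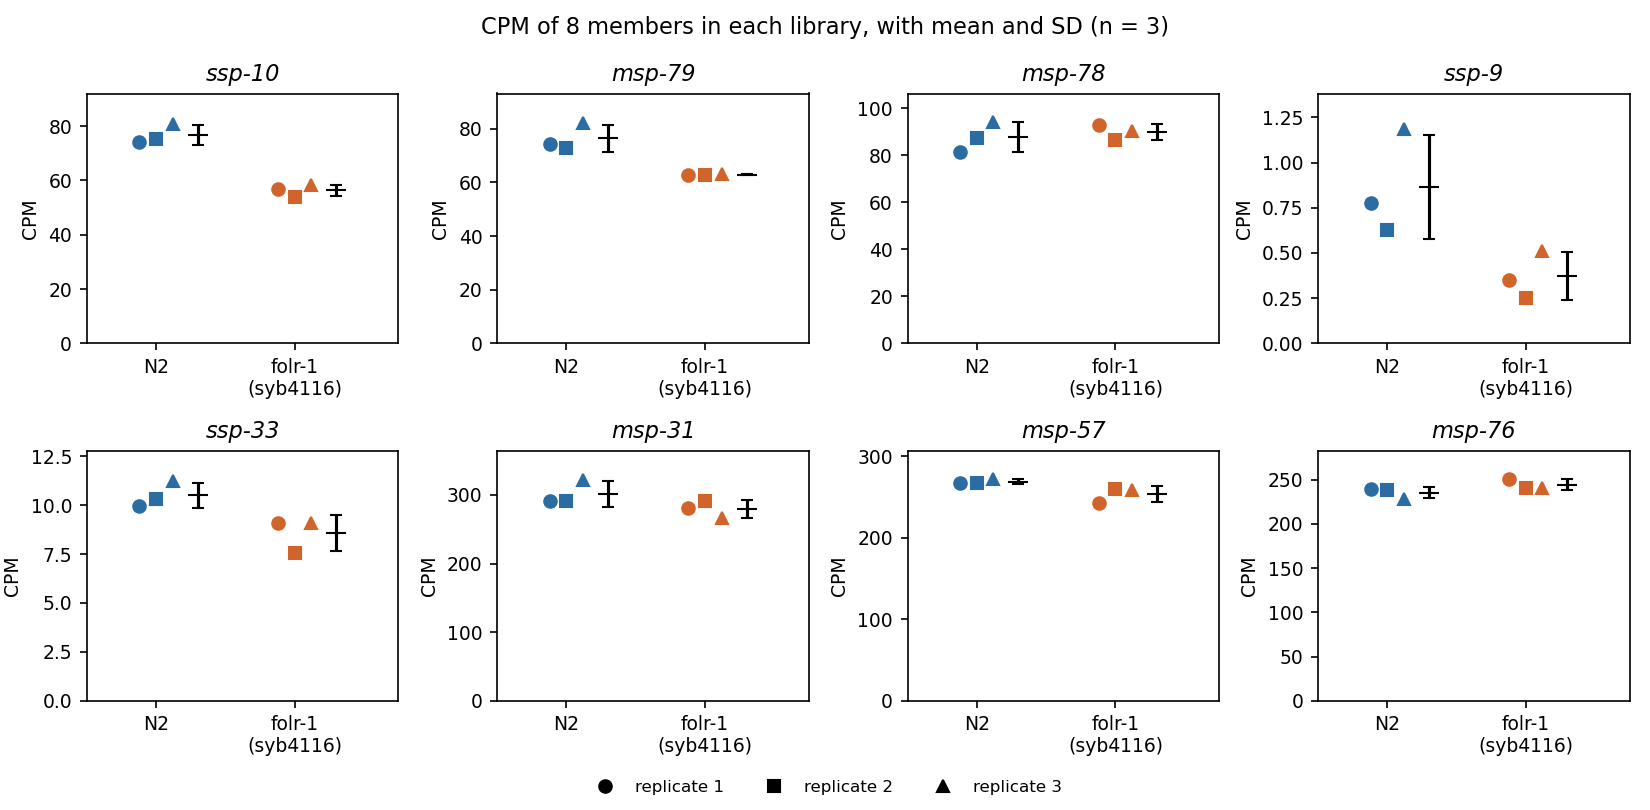
CPM of 8 members in each library (points, shape by replicate), with the mean and SD of each strain beside them (n = 3), on axes that start at 0. The strains are separated for *ssp-10* (76.7 ± 3.59 CPM in N2, 56.3 ± 2.14 CPM in the mutant) and *msp-79* (76.4 ± 5.03 and 62.8 ± 0.134 CPM), and they overlap for *msp-78* and *msp-31*.

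Beyond the called members, 7 others had all 3 mutant libraries on one side of all 3 N2 libraries. In all, 8 of the 49 tested members were lower in every mutant library than in every N2 library, against 12.9% of all tested genes, and 1 was higher, against 12.3%. The lower ones besides *ssp-10* and *msp-79* were *ssp-9*, the pseudogene *msp-52*, *ssp-33*, *msp-64*, *msp-81* and *msp-57*, and the higher one was *msp-76*.

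*ssp-9* had the largest fold change of the family on very few counts. It had 17, 14 and 30 counts in N2 and 9, 6 and 11 in the mutant, or 0.778, 0.629 and 1.19 CPM against 0.352, 0.249 and 0.511 CPM. The strains did not overlap, but N2 replicate 3 alone was close to the other N2 libraries added together in counts, and the change missed the threshold (log2 fold change −1.24, SE 0.39, adjusted p = 0.0698 by edgeR). Its neighbour and namesake *ssp-11* lay on the other side of 0, with 11.5, 12.9 and 13.3 CPM in N2 and 13.3, 13.9 and 14.3 CPM in the mutant (log2 fold change 0.13, SE 0.09, adjusted p = 0.443). *msp-52*, the third of the 3 largest negative changes, had 19, 22 and 25 counts in N2 and 20, 15 and 16 in the mutant (log2 fold change −0.41, adjusted p = 0.482).

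The most abundant members moved little. *msp-31* had 291, 291 and 323 CPM in N2 and 281, 292 and 266 CPM in the mutant, which overlapped (log2 fold change −0.11, SE 0.05, adjusted p = 0.201). *msp-57* had 267, 267 and 272 CPM in N2 and 242, 260 and 259 CPM in the mutant, all lower, by a margin that missed the threshold (log2 fold change −0.08, adjusted p = 0.244). *msp-76* had 239, 238 and 228 CPM in N2 and 251, 241 and 241 CPM in the mutant, all higher but only just (log2 fold change 0.06, adjusted p = 0.456). For *msp-40* and *msp-36* the strains overlapped and the log2 fold changes were −0.01 and 0.04 (adjusted p = 0.944 and 0.740). The largest positive change in the family was that of *msd-1*, with 19.8, 18.9 and 24.8 CPM in N2 and 22.6, 23.3 and 24.7 CPM in the mutant (log2 fold change 0.15, SE 0.09, adjusted p = 0.401). N2 replicate 3 held the highest of these values, and without it *msd-1* passed the threshold as higher (log2 fold change 0.28, adjusted p = 0.048).

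By branch of the family, the 30 tested *msp* genes had a median log2 fold change of −0.07, with 24 below 0. The median was −0.07 for the 4 *msd* genes, −0.08 for the 12 *ssp* genes, of which 11 were below 0, and −0.12 for the 3 tested pseudogenes. By position, the median was −0.04 in the larger cluster of chromosome II (11 tested), −0.15 in the small one (3 tested), −0.08 in the first cluster of chromosome IV (12 tested) and −0.11 in the second (15 tested), which holds both called members. In the small chromosome II cluster, *msp-142* had a log2 fold change of −0.15 (adjusted p = 0.0918) and *msp-64* of −0.14 (adjusted p = 0.120), both short of the threshold.

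A comparison within the family does not depend on how libraries are scaled. Of all family counts, *ssp-10* took 1.66, 1.69 and 1.70% in N2 and 1.28, 1.26 and 1.33% in the mutant. *msp-79* took 1.66, 1.64 and 1.72% in N2 and 1.42, 1.47 and 1.44% in the mutant. Both shares were thus lower in every mutant library, with less spread among the N2 libraries than in CPM. *msp-78* went the other way, with 1.83, 1.97 and 1.98% in N2 and 2.10, 2.02 and 2.07% in the mutant.

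**Figure D4:**
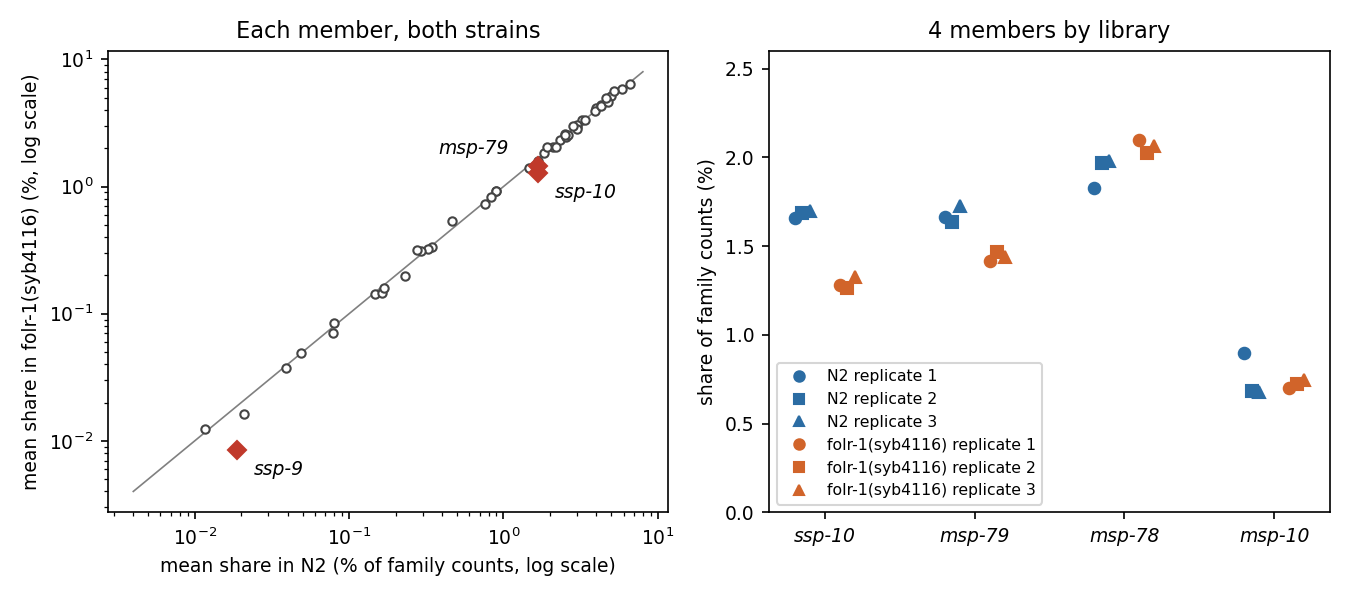
Left, the mean share of each member in the counts of the family, N2 against *folr-1(syb4116)*, on log axes with the line of equal shares. Right, the share of 4 members in each library on a linear axis from 0, where *ssp-10* and *msp-79* are lower in every mutant library, *msp-78* is higher and *msp-10* overlaps.

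Genes outside the family were read from 11 lists, of sperm, germline, oocyte, male, yolk and moult genes and of the reception of the MSP signal. The lists were chosen with earlier results of these data known, so their shares are descriptions and not tests. In 4 lists of sperm genes (MSP packaging and organelles, MSP cytoskeleton partners, sperm signalling and fusion, and small sperm-specific families), 44 of 51 listed genes were found by symbol. Of the 43 tested genes, 38 lay below 0, beside 49.3% of all tested genes, and the median log2 fold change was −0.12. 6 were called lower and 0 higher, against 3.32% and 3.64% of all tested genes. Their summed level was 2808, 2828 and 2962 CPM in N2 and 2648, 2566 and 2685 CPM in the mutant, without overlap.

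The packaging list held 3 of the 6 calls among its 8 tested genes, against 3.32% of all tested genes called lower, with a median of −0.19. *fer-1*, a ferlin needed for the fusion of the membranous organelles that carry the fibrous bodies, fell from 32.3 ± 0.460 to 24.1 ± 0.848 CPM (log2 fold change −0.42, adjusted p = 2.25e-04 by edgeR). *spe-15*, a myosin VI that sorts components when spermatids bud, fell from 151.9 ± 4.27 to 130.9 ± 2.93 CPM (log2 fold change −0.21, adjusted p = 0.00235 by edgeR). *spe-6*, a casein kinase 1-like protein needed to assemble MSP into fibrous bodies, fell with a log2 change of −0.24 (adjusted p = 0.0266 by edgeR).

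Of the 16 tested signalling and fusion genes, *spe-9*, an egg-binding protein of the sperm surface, was the only one called, at −0.41 (adjusted p = 0.0363). Of the 16 tested genes of small sperm-specific families, *nspd-7* (−0.25, adjusted p = 0.0112) and *ssq-2* (−0.17, adjusted p = 0.0218) were called lower. The calls of both lists stand beside 3.32% of all tested genes called lower. Of the 7 listed cytoskeleton partners, *mfp-1*, *mfp-2*, *mfp-3* and *mpop-1* were not found by symbol and were not analysed here, and neither were *spe-7*, *spe-21* and *spe-13* of the other sperm lists. None of the 3 partners that were found was called, and *gsp-3*, a sperm protein phosphatase and the most abundant of them, was level at 125 ± 0.834 CPM in N2 and 125 ± 4.84 CPM in the mutant. *fer-1* and *spe-15* were called with each library left out in turn. Over all 16 alternative fits, which include these, *spe-15* was called in 16 and *fer-1* in 14. *spe-6* was called only without mutant replicate 1, and *spe-9* only without N2 replicate 1. The call of *nspd-7* was lost without N2 replicate 3 or mutant replicate 2, and that of *ssq-2* without N2 replicate 3, mutant replicate 1 or mutant replicate 2.

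Upstream of the family, 9 genes of sperm fate and sperm transcription were tested, with a median of −0.10 and 8 below 0, beside 49.3% of all tested genes. *fog-3*, which directs germ cells to become sperm, was the only one called, from 3.51 ± 0.220 CPM in N2 to 1.99 ± 0.597 CPM in the mutant (log2 fold change −0.80, adjusted p = 0.0246 by edgeR). The call was lost without N2 replicate 1, N2 replicate 3 or mutant replicate 3. Over all tested genes, 3.32% were called lower. Of the 9 genes, 3 were lower in every mutant library, against 12.9% of all tested genes. Besides *fog-3* these were *fog-1* (−0.38, adjusted p = 0.0866 by edgeR) and *fog-2* (−0.21, adjusted p = 0.142), named after their values were seen. The list's summed CPM overlapped, but *gld-1* held most of it, with a mean of 640 of 839 CPM in N2. Of 11 genes through which the gonad receives the MSP signal, 5 lay below 0 and 6 above, with a median of 0.02. *gsa-1*, the stimulatory G protein alpha subunit acting in the sheath, was called higher at 0.25 (adjusted p = 0.0269), a call lost without N2 replicate 2, N2 replicate 3, mutant replicate 2 or mutant replicate 3. It was the only call among these 11 genes, against 3.64% of all tested genes called higher.

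Lists for other cells and for developmental timing moved as follows, and their part in the family's values was not tested. Of 15 oocyte genes, *puf-5*, an RNA-binding protein of oocytes, was called higher (0.18) and *chs-1*, the eggshell chitin synthase, lower (−0.19), with a median of −0.03. Of all tested genes, 3.64% were called higher and 3.32% lower. None of 15 germline genes was called, with a median of −0.05, and *glh-1*, the Vasa-like helicase of P granules and the most abundant of them, had 661 ± 5.77 CPM in N2 and 618 ± 7.62 CPM in the mutant (adjusted p = 0.0989). Together the 15 germline genes reached 2241, 2289 and 2253 CPM in N2 and 2193, 2160 and 2147 CPM in the mutant, without overlap. The log2 ratio of these sums was −0.06, the same size as that of the family. Each of these 2 oocyte calls was lost with at least 3 of the 6 libraries left out in turn.

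Of the 11 male genes, 8 were tested, with a median log2 fold change of −0.42. 3 of them were called lower, against 3.32% of all tested genes, and 5 were not called. All 3 N2 libraries (25.1, 21.6 and 21.1 CPM summed over the 11 genes) were above all 3 mutant libraries (18.69, 16.70 and 18.04 CPM). *lov-1* and *pkd-2*, the polycystins of male sensory neurons, were called at −3.47 and −2.62 (adjusted p = 0.0015 and 0.00248 by edgeR), on at most 24 counts in any library. *mab-3*, a DM-domain factor of male development, was called at −1.01 (adjusted p = 0.0031), and all 3 calls were kept with each library left out in turn. Over all alternative fits, *mab-3* was called in 16 of 16, and *lov-1* and *pkd-2* each in 13 of 15. In N2 each of these 3 genes was highest in replicate 3. The list was uneven. *swm-1*, a trypsin inhibitor of seminal fluid that held most of its counts, had a log2 fold change of −0.05. *cwp-4*, *cwp-5* and *klp-6*, of male sensory neurons, had 0.12, −0.03 and −0.05, and *try-5* had −0.78 (adjusted p = 0.273 by edgeR). *cwp-1*, *cwp-2* and *cwp-3* did not pass the filter and were lower in every mutant library. *cwp-1* had 7, 4 and 7 counts in N2 and 0 in each mutant library, and *cwp-2* had 10, 4 and 6 against 1, 1 and 1. These 8 genes were named after their values were seen. Without the 3 called genes, the sums overlapped, at 20.0, 16.9 and 14.3 CPM in N2 and 16.5, 14.7 and 15.7 CPM in the mutant. Most of these sums was *swm-1*, with 17.2, 13.1 and 11.8 CPM in N2 and 14.4, 12.7 and 13.6 CPM in the mutant. The overlap therefore says little about the other genes of the list.

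Genes of late L4 timing were called in both directions. Of 13 moult and cuticle genes, 3 were called higher and 1 lower, against 3.64% and 3.32% of all tested genes. The collagen *rol-6* (0.33, adjusted p = 0.00471 by edgeR) and *mlt-10*, a gene of the moult (0.32, adjusted p = 0.0168), were called higher and the collagen *col-62* lower (−0.22, adjusted p = 0.0271). The collagen *bli-2*, named after its value was seen, was also called higher (0.29, adjusted p = 0.0273). Of 6 vitellogenins, *vit-3*, a yolk protein gene, was called higher (0.23, adjusted p = 0.031 by edgeR), against 3.64% of all tested genes. Among these 5 calls, that of *rol-6* was kept with each library left out in turn, and in 14 of all 16 alternative fits.

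**Figure D5:**
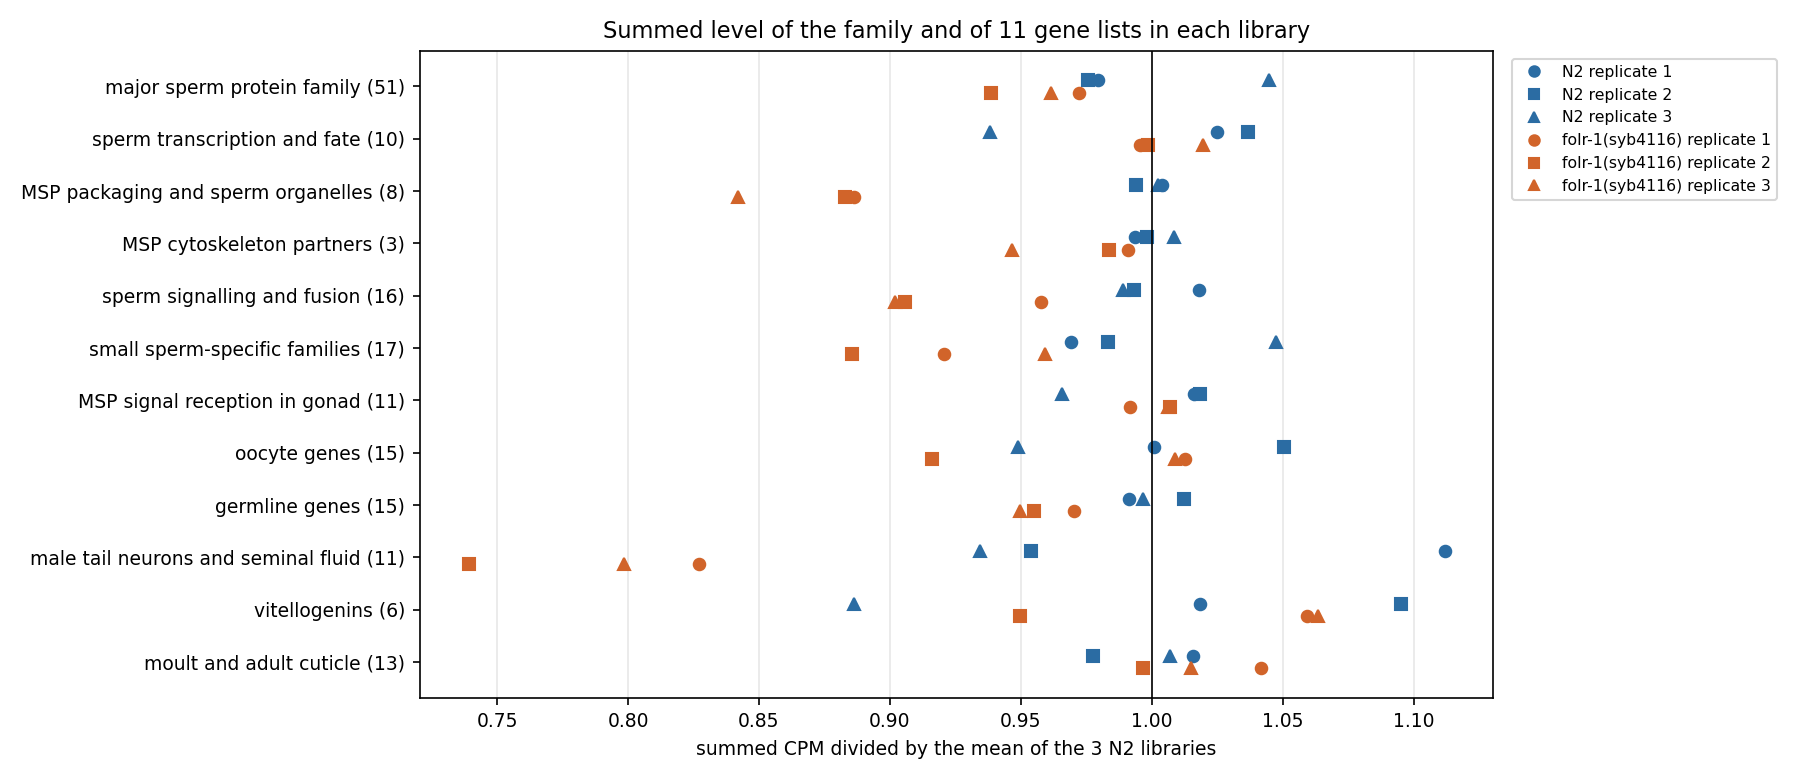
Summed CPM of the family and of the 11 lists in each library, divided by the mean of the 3 N2 libraries (blue N2, orange *folr-1(syb4116)*, number of genes in brackets). The mutant libraries lie below the N2 libraries for the family, for the 4 sperm lists described together and for the male and germline lists, and they overlap for the sperm fate, oocyte, MSP reception, vitellogenin and cuticle lists.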

How the data were processed

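Per the labels and the study's methods, poly-T selected RNA of whole L4 larvae was sequenced as paired ends on an Illumina platform. The authors cleaned the reads with fastp, mapped them to WBcel235 with HISAT2 and counted them per gene with featureCounts. Tool versions, the strandedness and the treatment of reads with several matches are not given in the sources used here. The deposited values are raw read counts and FPKM (counts divided by gene length and depth by the authors). Depth ranged from 21646678 to 25946226 counts per library. Columns were matched to samples by title, and no per-sample column was left unused.

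Symbols came from the WBcel235 annotations of Ensembl and RefSeq, to which 46180 of 46661 IDs matched 1 gene. Of the 51 members, 47 were named in the Ensembl annotation and 4 pseudogenes only in RefSeq. *ssp-11* and *msd-3* took RefSeq's symbol because Ensembl repeats another, and 1 gene, R74.10, named differently by the 2 annotations, was left out. Counts were tested with edgeR 4.0.16 in R 4.3.3 (TMM, filterByExpr, quasi-likelihood, strain as the only term), and p-values were adjusted by Benjamini-Hochberg over 15432 genes. CPM are counts scaled to 1000000 of the TMM-scaled library size. The script was tested on simulated data. DESeq2 1.42.0, limma 3.58.1 on voom weights and on log2(FPKM + 1) or log2(FPKM + 0.1), other filters, a length correction, a replicate block and leaving out each library were alternatives. Whether equal replicate numbers mark paired samples is not given in the sources used here. Deviations from the strain mean had correlations of −0.04, −0.09 and 0.01 between same-numbered samples. With 3 libraries per strain these values cannot exclude pairing. Replicates differed by more than sampling noise (chi-square per degree of freedom 3.28 to 8.60).

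The members and lists were chosen with earlier results of these data known. Named members were those called, the 5 with the highest mean FPKM and the 3 with the largest change in each direction. In each list, up to 3 called genes by adjusted p or, with none, the gene with the highest mean count were named, and neighbours and members whose strains did not overlap were named as such.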

Additional observations from a re-analysis of the deposited data

How the results depend on the processing

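The calls of *ssp-10* and *msp-79* were kept under all 16 other fits and lost only under the stricter threshold that the study's methods name for edgeR (adjusted p under 0.005 and an absolute log2 change over 1), where 0 members passed, since the changes were −0.45 and −0.28. Without a filter on counts, 6 members passed, all lower (*msd-2*, *msp-142*, *msp-64*, *msp-79*, *ssp-10* and *ssp-9*, the last at −1.24 with adjusted p = 0.038). With each library left out, 2 to 3 members passed (2 to 3 lower, 0 to 1 higher), *msd-2* being added without N2 replicate 2, and also under the length correction, and *msd-1* without N2 replicate 3. With each library left out, the log2 fold change of *msp-40* ranged from −0.030 to 0.022 (above 0 without N2 replicate 3, and 0.01 without mutant replicate 2), and that of *msp-36* from −0.0033 to 0.10 (below 0 without N2 replicate 2). The members' median lay between −0.09 and −0.04 under all alternatives. Over all genes, 894 were called higher without a filter, 310 and 309 on log2(FPKM + 1) and log2(FPKM + 0.1), and 4 at the stricter threshold. The genes called lower were 268, 274 and 138 under the last 3 of these. With each library left out, 335 to 529 were called higher and 337 to 470 lower. In the lists, which were chosen with earlier results known, 18 of 120 tested genes were called, against 6.95% of all tested genes, a description and not a test. The number called was 28 without a filter, 4 and 4 on the FPKM scales, 3 at the stricter threshold and 10 to 15 with each library left out. With the replicate block, which pairs samples by number only, the same 2 members were called, the members' median was −0.07, and 459 genes were called higher and 406 lower. Sums over members with identical proteins were not run.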
